A study of Mus musculus with 6 samples.

Results

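The genes described here are complement and acute-phase genes, a set chosen from a list of 8 gene symbols (Cfb, C3, Lcn2, Saa3, Serping1, Cd55, Cd59a and Slpi) by their presence in the deposited expression table. Of the 8 listed genes, 4 were in the table of 12534 genes, namely Cfb, C3, Lcn2 and Slpi, and all 4 were among the 12106 genes that passed the filter on low counts. Saa3, Serping1, Cd55 and Cd59a are not analysed here. The list was drawn up with the KO against WT values of this experiment known, so the differences of the 4 genes between KO and WT chose them in part, and they are given below as a description with no test.

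RNA was sequenced from 3 libraries of 4T1 GPD2 KO cells and 3 libraries of 4T1 WT cells, in a study of how loss of GPD2 alters the metabolism of cancer cells. GPD2 is the mitochondrial glycerol-3-phosphate dehydrogenase, and 4T1 is a mammary carcinoma line from the BALB/c mouse. The KO cells were Gpd2 -/-, made by transfection with a plasmid for Cas9 and a guide RNA, selection in puromycin and growth from a single cell, and the sequenced KO libraries came from 1 clone. The labels give no other treatment, and both genotypes were grown in RPMI medium. The treatment label of the WT samples also names a vector with guide and Cas9, whereas the methods describe transfection only for KO lines, so whether WT cells met the vector is not known. An effect of the knockout and a trait of the clone cannot be told apart. The labels do not say whether the 3 libraries of a genotype came from separate cultures, so p-values measure only the spread between these libraries, which may be technical.

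Complement is a cascade of plasma proteins in which proteases cut C3, and the fragment that attaches to a surface marks it for uptake and starts the assembly of a membrane pore. In the alternative pathway that fragment binds factor B, the product of Cfb, and the pair forms the enzyme that cuts more C3, while proteins such as C1 inhibitor, CD55 and CD59 hold the cascade back. Acute-phase genes such as Lcn2 are induced in liver, and in epithelia at sites of inflammation, by cytokines that act through C/EBP, NF-kappaB and STAT factors.

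The proximal promoter sequences are shown because the results turn on 3 genes that were higher in KO cells beside 1 that was not (Slpi). Cfb and Lcn2 were far higher, and C3 was higher by less. The letters let a reader compare the starts of these genes. Each window holds the 250 bases before the annotated start and the 50 bases from it, read 5′ to 3′ on the strand of the gene, from RefSeq on GRCm38.p6, the assembly of mm10. The table matched 3 of the 4 genes, and Cfb is named only. Capitals mark matches to the C/EBP motif TTNNGCAA on either strand and, in C3, the TATA motif TATAAA. The windows lie at chr17:57228087-57228386 for C3, chr2:32387690-32387989 for Lcn2 and chr2:164356458-164356757 for Slpi, all on the minus strand.
C3: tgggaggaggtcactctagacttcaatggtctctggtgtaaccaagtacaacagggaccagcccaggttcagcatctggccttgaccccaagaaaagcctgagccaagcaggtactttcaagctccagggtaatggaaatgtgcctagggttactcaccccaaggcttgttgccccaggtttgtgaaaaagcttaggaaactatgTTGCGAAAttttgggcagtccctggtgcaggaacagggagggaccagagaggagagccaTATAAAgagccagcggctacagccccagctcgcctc
Lcn2: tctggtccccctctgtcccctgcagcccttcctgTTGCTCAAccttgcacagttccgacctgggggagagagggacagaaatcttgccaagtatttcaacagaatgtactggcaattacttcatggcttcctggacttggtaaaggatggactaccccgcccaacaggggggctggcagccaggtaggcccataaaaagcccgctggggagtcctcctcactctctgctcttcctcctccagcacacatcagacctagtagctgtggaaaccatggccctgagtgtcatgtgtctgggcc
Slpi: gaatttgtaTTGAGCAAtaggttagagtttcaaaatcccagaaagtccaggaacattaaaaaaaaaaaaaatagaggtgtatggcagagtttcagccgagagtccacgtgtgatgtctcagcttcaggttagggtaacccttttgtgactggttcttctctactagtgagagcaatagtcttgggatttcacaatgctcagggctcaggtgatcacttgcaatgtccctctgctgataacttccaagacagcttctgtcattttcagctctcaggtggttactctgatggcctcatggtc
In C3 the C/EBP match lay on the opposite strand from -45 to -38, counting the base before the start as -1, and TATAAA lay at 15 to 20, counting the first transcribed base as 1. In Lcn2 the C/EBP match lay on the opposite strand from -216 to -209, and in Slpi on the strand of the gene from -241 to -234. The C/EBP motif was thus in 3 of the 3 windows, among them that of Slpi, the gene that was lower in KO cells. It was in 10.8% of all 32851 mouse windows of this length. Of the other motifs, searched on both strands, kappaB was in 0 of 3 windows and in 8.46% of all windows, the STAT motif GAS (TTCNNNGAA) in 0 of 3 and in 8.30% of all, and the interferon element ISRE in 0 of 3 and in 3.44% of all. TATAAA was in 1 of 3 windows and in 13.6% of all. These are matches of letters in a short window, and no binding was measured.

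Cfb encodes factor B, the protease subunit of the alternative pathway convertase. Its read counts were 2265, 2270 and 2270 in KO libraries 1 to 3, against 35, 47 and 37 in WT libraries 1 to 3. In TPM, a level that allows for transcript length, these were 35.3, 32.9 and 32.2 TPM in KO cells and 0.486, 0.619 and 0.542 TPM in WT cells. The 3 KO libraries lay close together and far above each WT library. In CPM, counts scaled by library total and TMM factor, Cfb averaged 42.4 ± 1.77 CPM in KO cells and 0.702 ± 0.0739 CPM in WT cells (SD, n = 3 each). The log2 fold change was 5.91 (standard error 0.0828), a 60.1-fold difference and the sixth highest of the 12106 genes tested (rank 6). In RNA of whole cultures, more cells with a transcript and more transcript per cell cannot be told apart, here and for each gene that follows.

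C3 encodes complement component C3, the protein on which all arms of the cascade converge. It had 885, 835 and 811 counts in KO libraries 1 to 3, against 264, 338 and 244 in WT libraries 1 to 3. Its levels were 7.37, 6.47 and 6.14 TPM in KO cells and 2.01, 2.38 and 1.91 TPM in WT cells, with no overlap between genotypes but a much narrower gap than that of Cfb. C3 averaged 15.8 ± 1.39 CPM in KO cells and 4.98 ± 0.561 CPM in WT cells (SD, n = 3 each). The log2 fold change was 1.66 (standard error 0.102), a 3.16-fold difference at rank 187 from the top.

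Lcn2 encodes lipocalin 2, a secreted protein that binds bacterial siderophores and so withholds iron. It had 2298, 2380 and 2657 counts in KO libraries 1 to 3, against 69, 78 and 58 in WT libraries 1 to 3. Its levels were 115.3, 111.1 and 121.2 TPM in KO cells and 3.15, 3.29 and 2.69 TPM in WT cells. As with Cfb, all KO libraries were high and all WT libraries low, with a wide gap between them. Lcn2 averaged 45.6 ± 1.89 CPM in KO cells and 1.21 ± 0.113 CPM in WT cells (SD, n = 3 each). The log2 fold change was 5.23 (standard error 0.0757), a 37.6-fold difference at rank 13.

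Slpi encodes secretory leukocyte protease inhibitor, which blocks neutrophil elastase and has antimicrobial activity. It had 11079, 11810 and 12249 counts in KO libraries 1 to 3, against 14290, 14331 and 13751 in WT libraries 1 to 3. Its levels were 541.5, 536.7 and 544.5 TPM in KO cells and 639.7, 592.7 and 632.9 TPM in WT cells. The highest KO value was under the lowest WT value, so Slpi differed in the other direction, and by little. Slpi averaged 218.8 ± 1.76 CPM in KO cells and 251.2 ± 11.4 CPM in WT cells (SD, n = 3 each). The log2 fold change was -0.20 (standard error 0.0409), or 1.15-fold higher in WT cells, and 63.1% of tested genes had a change at least as large in either direction.

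**Figure D1:**
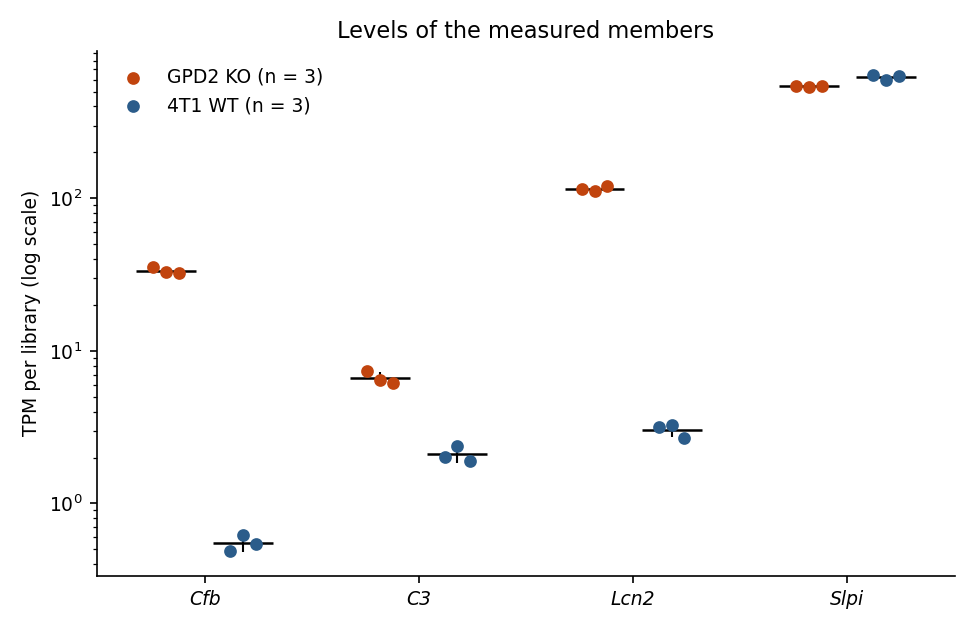
Levels of Cfb, C3, Lcn2 and Slpi in TPM (log axis), with 1 point for each of the 3 KO and 3 WT libraries and lines at the group means with SD. KO lies above WT for Cfb (32.2 to 35.3 TPM against 0.486 to 0.619 TPM), Lcn2 and C3, and below it for Slpi.

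The KO and WT libraries did not overlap for any of the 4 genes, which also held for 71.1% of all genes tested, with KO above WT for 35.7%. A fold of 2 or more in either direction together with an unadjusted exact test p under 0.05, the thresholds of the study, was met by 3 of the 4 genes (Cfb, C3 and Lcn2), with a background of 8.64% of genes in either direction 3.86% higher and 4.78% lower in KO cells. A fold of 2 or more with an adjusted p under 0.05, used further on to name genes, was met by 3.74% of genes higher and 4.64% lower in KO cells. As the same contrast chose the genes, nothing is read from these counts. The median change over all genes was -0.00081 on the log2 scale and the median absolute change was 0.28.

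**Figure D2:**
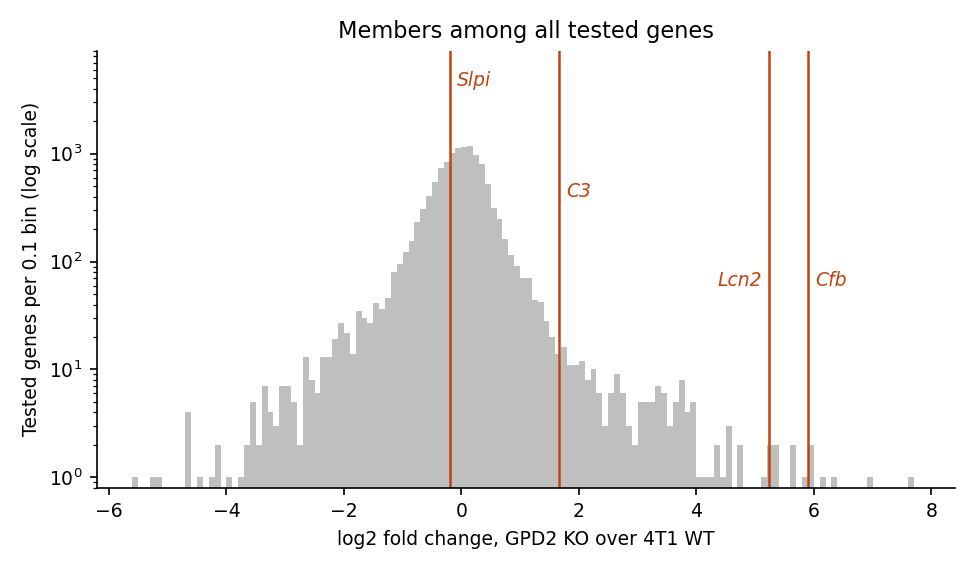
Distribution of the log2 fold change (KO over WT) over the 12106 genes tested, with the number of genes on a log axis and lines at the 4 genes. Cfb (5.91) and Lcn2 (5.23) lie far out in the upper tail, C3 (1.66) nearer the bulk, and Slpi (-0.20) within it.

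The order of the 4 levels differed between genotypes. In KO cells it was Slpi, Lcn2, Cfb and C3 from high to low in TPM, and in WT cells it was Slpi, Lcn2, C3 and Cfb. No neighbours in either order had overlapping libraries. Cfb, the convertase subunit, had 4.79, 5.09 and 5.24 times the TPM of C3 in KO libraries 1 to 3, against 0.241, 0.26 and 0.284 times in WT libraries 1 to 3. The ratio averaged 5.04 ± 0.228 in KO cells and 0.262 ± 0.0213 in WT cells (SD, n = 3 each). The Cfb transcript thus stood above that of C3 in KO cells and below it in WT cells, and the proteins were not measured. Slpi had 4.67 ± 0.172 times the TPM of Lcn2 in KO cells and 206 ± 27.5 times in WT cells (SD, n = 3 each).
Within a genotype the libraries differed little. The coefficient of variation of CPM in KO cells was 4.18% for Cfb, 8.81% for C3, 4.14% for Lcn2 and 0.807% for Slpi. In WT cells, where 3 of the genes had few reads, it was 10.5% for Cfb, 11.3% for C3, 9.38% for Lcn2 and 4.54% for Slpi. Ranked by TPM among the genes of each library, Slpi was at rank 259 to 261 in KO cells and 199 to 215 in WT cells, among the most abundant transcripts of both. Lcn2 was at rank 1533 to 1713 in KO cells and 10297 to 10474 in WT cells. Cfb was at rank 4959 to 5246 in KO cells and 11548 to 11669 in WT cells, and C3 at 9176 to 9433 in KO cells and 10599 to 10773 in WT cells. C3 was thus among the lower transcripts in both genotypes, and in WT cells it ranked below Lcn2 and above Cfb. Lcn2 and Cfb were among the lower transcripts in WT cells only.

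The other complement genes moved in both directions. Of 57 further complement genes listed, 19 were in the table and 18 were tested: 6 were higher, 5 were lower, and 7 missed an adjusted p under 0.05 (edgeR's quasi-likelihood test, Benjamini-Hochberg adjustment). Their median log2 fold change was -0.04, against -0.00081 over all genes, and 66.8% of all genes passed the test, 33.5% higher and 33.3% lower in KO cells. By role, 6 of 10 initiation genes were higher and 1 was lower (C1rl), with a median of 0.66. Besides the C1 proteases, those that were higher were Masp1 and Masp2 of the lectin pathway, of which Masp2 did not pass with limma on log2(TPM + 1) (adjusted p = 0.24). Of 4 receptors and binding proteins, 3 were lower (C5ar2, Itgb2 and C1qbp) and Itgam did not pass, and of 3 regulators Clu was lower and Cd46 and Cr1l did not pass. Of these, C5ar2 and the C1 proteases came under the rule for naming, and the others are named after their values were seen. The only further gene of the central pathway that was tested, Cfp, which encodes properdin, did not pass, at 1.71 ± 0.248 CPM in KO cells and 2.15 ± 0.578 CPM in WT cells (SD, n = 3 each).
C1s1 encodes a C1s protease of the classical pathway. It was at 30.7, 26.2 and 32.1 CPM in KO libraries 1 to 3 and at 10.3, 10.2 and 9.90 CPM in WT libraries 1 to 3 (log2 fold change 1.55, standard error 0.0794, adjusted p = 2.32e-07). C1ra, for the C1r protease that activates C1s, was at 24.4, 23.9 and 24.3 CPM in KO libraries 1 to 3 and at 12.6, 11.4 and 11.5 CPM in WT libraries 1 to 3, with a log2 fold change of 1.03 (adjusted p = 4.50e-07). Both proteases of the C1 complex thus rose, with every KO library above every WT library. Their close copies C1s2 and C1rb had log2 fold changes of 1.67 (adjusted p = 1.83e-05) and 1.13 (adjusted p = 8.85e-05), and reads may be split between the copies, so the values of each pair are uncertain. C5ar2, a receptor for the anaphylatoxin C5a, was at 0.959, 0.483 and 0.755 CPM in KO libraries 1 to 3 and at 3.25, 2.97 and 3.17 CPM in WT libraries 1 to 3, and was lower in KO cells (log2 fold change -2.10, standard error 0.216, adjusted p = 2.05e-05).
Chosen after their values were seen, Clu, which encodes the complement inhibitor clusterin, was at 75.4 ± 3.02 CPM in KO cells and 125.8 ± 3.07 CPM in WT cells (SD, n = 3 each), and Cr1l, a regulator of the convertases, was at 32.3 ± 0.536 CPM in KO cells and 32.0 ± 2.37 CPM in WT cells (SD, n = 3 each). Clu passed the test with a log2 fold change of -0.74, and Cr1l did not pass it. C4a and C4b, which encode copies of component C4 and lie near Cfb, had under 1 CPM in both genotypes and did not pass, at log2 fold changes of -0.10 (standard error 0.518) and 0.05 (standard error 0.316).

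**Figure D3:**
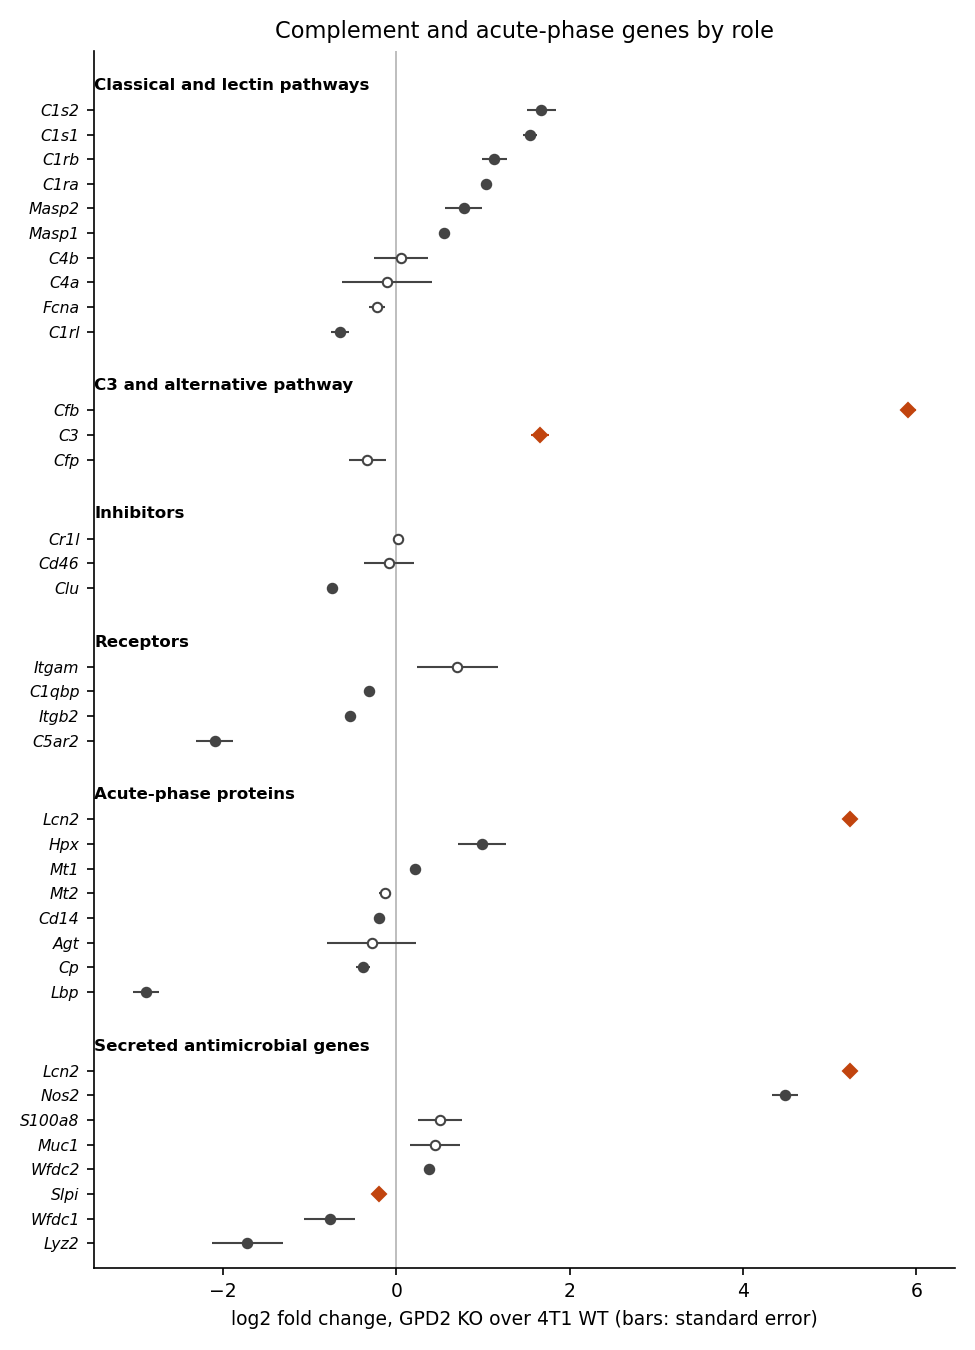
Log2 fold change (KO over WT, bars show the SE) of tested complement, acute-phase and secreted antimicrobial genes, grouped by role. Red diamonds are Cfb, C3, Lcn2 and Slpi, filled points passed an adjusted p under 0.05 and open points did not, and Cfb (5.91) and Lcn2 (5.23) lie beyond every other gene shown.

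Acute-phase genes besides Lcn2 showed no common direction. Of 40 further acute-phase genes listed, 8 were in the table and tested. Of the 8, 3 were higher, 3 were lower (Lbp, Cp and Cd14) and 2 missed the threshold (Mt2 and Agt). These counts stand beside 33.5% of all tested genes higher and 33.3% lower in KO cells. The median of the 8 was -0.16 on the log2 scale. All of the genes in brackets but Lbp are named after their values were seen. Of 10 genes that fall in the acute-phase response of the liver, 0 were in the table. Lbp, which encodes the lipopolysaccharide binding protein, was at 0.841, 0.594 and 0.791 CPM in KO libraries 1 to 3 and at 5.51, 5.52 and 5.44 CPM in WT libraries 1 to 3. It fell by 2.89 on the log2 scale (standard error 0.150, adjusted p = 2.57e-07), in the direction opposite to that of Lcn2.
Of 23 other secreted antimicrobial genes and relatives of Slpi, 7 were in the table and 6 were tested. Of the 6, 2 were higher (Nos2 and Wfdc2), 2 were lower (Lyz2 and Wfdc1) and 2 were short of the threshold. Here too, 33.5% of all tested genes were higher and 33.3% lower. Wfdc1, named after its values were seen, lost its call without any 1 of 4 libraries (KO 2, KO 3, WT 1 or WT 2). Nos2, the inducible nitric oxide synthase, was at 24.7, 22.3 and 21.5 CPM in KO libraries 1 to 3 and at 1.36, 0.897 and 0.801 CPM in WT libraries 1 to 3, a rise of 4.48 on the log2 scale (standard error 0.149, adjusted p = 1.40e-08). Lyz2, a lysozyme, had under 2 CPM in all libraries and a log2 fold change of -1.72 (adjusted p = 0.00423). Wfdc2, a relative of Slpi with the same kind of domain and named after its values were seen, was at 414.6 ± 5.78 CPM in KO cells and 318.0 ± 5.71 CPM in WT cells (SD, n = 3 each), a rise of 0.38 on the log2 scale that ran against the lower level of Slpi.
Among the receptors, ligands and processing partners of the listed proteins, 9 of 15 tested genes were higher and 2 were lower. Over all tested genes 33.5% were higher and 33.3% lower. The 2 lower genes were Mmp9 and, named after its values were seen, Plscr1. Thus 73.3% passed the test beside 66.8% of all genes. With a fold of 2 or more as well, 4 were higher and 1 was lower. Mmp9, a gelatinase in this list, was at 4.44, 4.73 and 4.26 CPM in KO libraries 1 to 3 and at 20.5, 19.8 and 18.9 CPM in WT libraries 1 to 3. It fell by 2.14 on the log2 scale (standard error 0.0737, adjusted p = 1.72e-08), while Lcn2 was higher in the same libraries. Bdh2, linked in mouse to the making of a mammalian siderophore, was at 1.01 ± 0.162 CPM in KO cells and 0.273 ± 0.0245 CPM in WT cells (SD, n = 3 each), a log2 fold change of 1.88 (adjusted p = 0.000132). Grn, for the progranulin that Slpi protects from elastase and named after its values were seen, was at 315.2 ± 4.28 CPM in KO cells and 195.4 ± 6.72 CPM in WT cells (SD, n = 3 each).

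Genes that act upstream of acute-phase induction were next compared. Of 22 cytokines and receptors tested, 9 were higher, 10 were lower and 3 missed the threshold, beside 33.5% of all tested genes higher and 33.3% lower. Of 31 transcription factors and their regulators, 18 were higher, 7 were lower and 6 missed it. Thus 80.6% passed the test beside 66.8% of all genes, and the median change was 0.26 on the log2 scale. This list, like the others used here, was chosen with earlier results of these data known, so nothing is read from its share. Il1a, an interleukin 1 ligand, was at 121, 108 and 126 CPM in KO libraries 1 to 3 and at 0.635, 0.582 and 0.596 CPM in WT libraries 1 to 3 (log2 fold change 7.61, standard error 0.0895, adjusted p = 2.66e-11). Il17rd, a receptor of the IL-17 family, fell by 3.94 on the log2 scale (adjusted p = 1.70e-07). The cytokine list thus held a strong rise of 1 ligand beside changes of receptors in both directions.
Cebpd, for C/EBP delta, a factor of acute-phase transcription, was at 46.6, 57.5 and 51.6 CPM in KO libraries 1 to 3 and at 3.28, 3.99 and 3.63 CPM in WT libraries 1 to 3 (log2 fold change 3.83, standard error 0.0957, adjusted p = 2.17e-09). Irf7, an interferon regulatory factor, was at 196, 197 and 185 CPM in KO libraries 1 to 3 and at 3.43, 2.54 and 3.62 CPM in WT libraries 1 to 3 (log2 fold change 5.92, standard error 0.107, adjusted p = 2.79e-10). Both were among the genes with the largest rises in the list. Nfkbiz encodes the nuclear factor IkappaB zeta, on which induction of Lcn2 by interleukin 1 depends in mouse cells. It was at 113, 106 and 112 CPM in KO libraries 1 to 3 and at 31.2, 33.1 and 31.1 CPM in WT libraries 1 to 3 (log2 fold change 1.80, standard error 0.0424, adjusted p = 1.48e-09). Bcl3, another nuclear IkappaB protein, was at 33.4, 34.8 and 34.5 CPM in KO libraries 1 to 3 and at 7.42, 8.03 and 6.60 CPM in WT libraries 1 to 3 (log2 fold change 2.22, adjusted p = 1.22e-08). Stat2, of the interferon response, had a log2 fold change of 2.08 (adjusted p = 4.29e-09). Of the 5 NF-kappaB subunit genes, named after their values were seen, Relb and Nfkb1 were higher, at log2 fold changes of 0.86 (standard error 0.0594) and 0.26 (standard error 0.0352). Rela, Nfkb2 and Rel did not pass the test, at 0.03 (standard error 0.0468), 0.06 (standard error 0.0503) and 0.17 (standard error 0.118) on the same scale. Socs3, a feedback inhibitor induced through STAT3 and also named after its values were seen, fell by 0.29 on the log2 scale. Stat3 itself was higher in KO cells, by 0.59 on that scale. Il6st, Osmr and Cebpb were higher too, by 0.38, 0.85 and 0.79, whereas Il6ra and Jak2 were lower, at -0.19 and -0.83. These genes were likewise picked with their values known, and others in the 2 lists went either way at an adjusted p under 0.05. With a fold of 2 or more as well, 10 transcription factors and regulators were higher in KO cells and 0 were lower. Of the cytokines and receptors, 1 was higher and 2 were lower at that threshold. Over all tested genes it was met by 3.74% higher and 4.64% lower. Whether any gene of the 2 lists has a part in the levels of Cfb, C3 or Lcn2 was not tested.

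**Figure D4:**
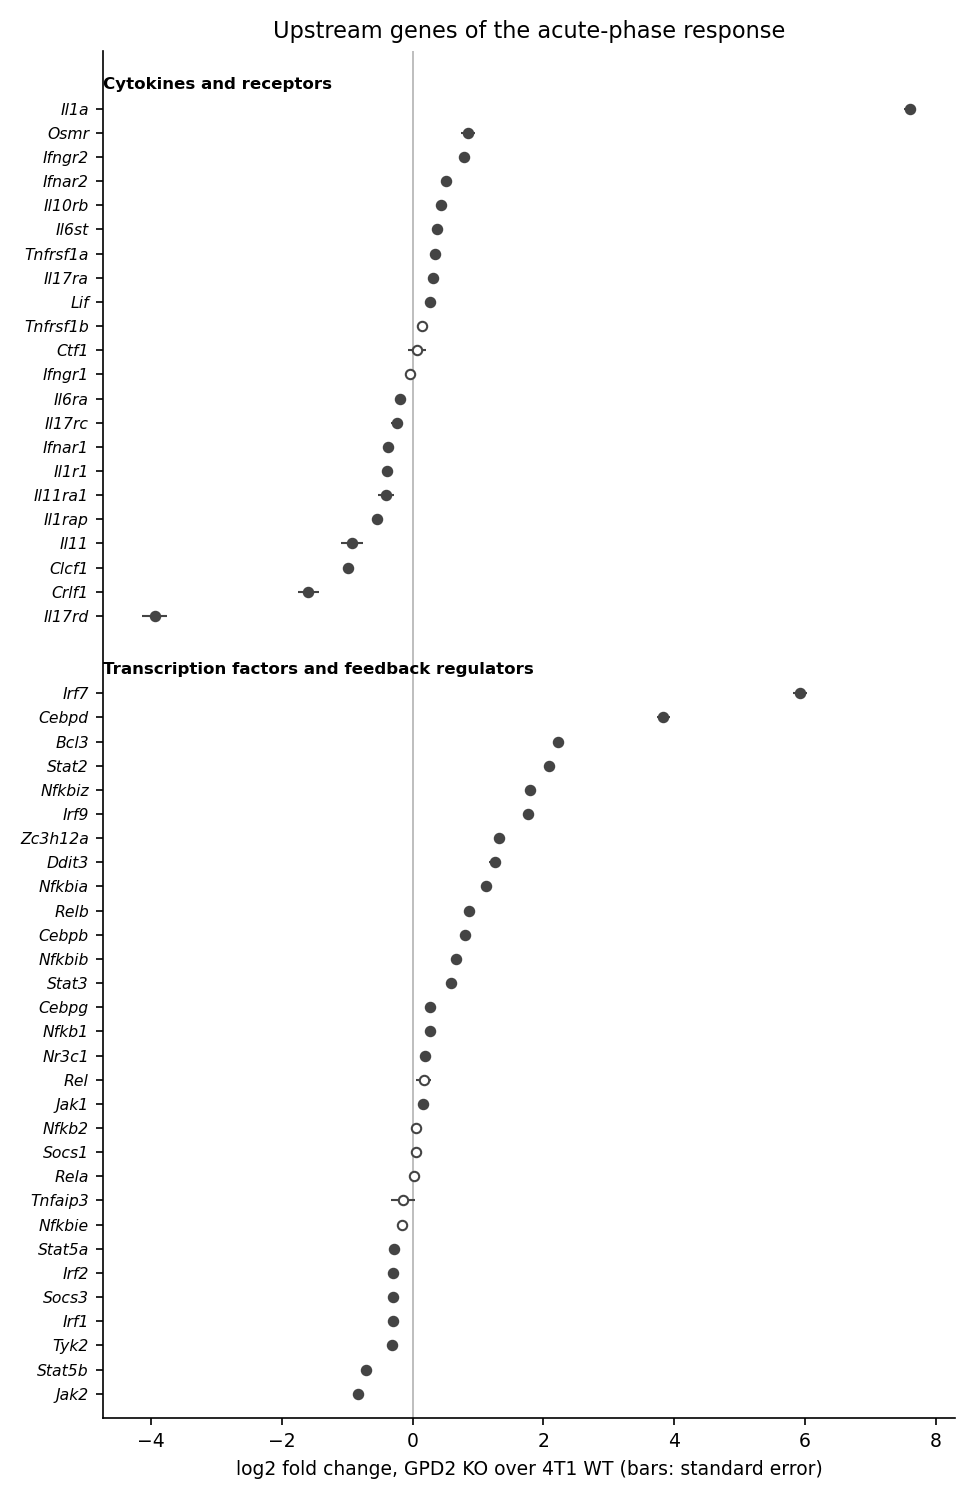
Log2 fold change (KO over WT, bars show the SE) of tested cytokines, receptors, transcription factors and their regulators, with filled points for an adjusted p under 0.05 and open points for genes that did not pass. Il1a (7.61), Irf7 (5.92) and Cebpd (3.83) lie farthest to the right, and Il17rd (-3.94) farthest to the left.

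All 4 genes lie on the minus strand of GRCm38, in pairs on chromosomes 17 and 2. Cfb (18 exons) runs from 34856374 to 34862514 and C3 (41 exons) from 57203967 to 57228136 on chromosome 17, and Lcn2 (6 exons) from 32384637 to 32387739 and Slpi (4 exons) from 164354070 to 164356507 on chromosome 2, which also carries the targeted gene, Gpd2. The GENCODE annotation places Gm20547 and a microRNA over Cfb, and a microRNA over each of C3 and Slpi, on the same strand, so reads of these cannot be told apart where they overlap. No annotated gene overlaps any of the 4 on the opposite strand. Of the genes on chromosome 17, 69.5% passed the test and the median change was 0.01 on the log2 scale, and on chromosome 2 it was 64.4% with a median of 0.09. Over all tested genes it was 66.8% with a median of -0.00081.
No gene near Cfb, C3 or Lcn2 had a difference as large in the same direction. Within 200000 bases of the starts of the 4 genes, 48 other tested genes began. The counts that follow stand beside 33.5% of all tested genes higher and 33.3% lower in KO cells. Of the 21 near Cfb, in the complement gene cluster, 5 were higher and 6 were lower, with log2 fold changes from -2.52 (Vwa7) to 1.77 (Neu1, a sialidase) and a median of -0.06, all under that of Cfb. Its nearest downstream neighbours, Nelfe and Skiv2l, had log2 fold changes of -0.09 and -0.15. Zbtb12, 1 of the 5 higher genes near Cfb, lost its call under 10 of 13 alternatives. Of the 9 near C3, 0 were higher and 7 were lower, from -3.32 (Slc25a23) to 0.07 (Trip10). Tubb4a, 1 of the 7 lower genes, lost its call under 6 of 13 alternatives. Within 100000 bases of the start of C3, 1 of 3 neighbours was lower (Gpr108, log2 fold change -0.19) and 0 were higher. Of the 13 near Lcn2, 6 were higher and 3 were lower, from -0.76 (Dnm1) to 1.18 (Slc25a25), and the closest on either side, Ptges2 and 1110008P14Rik, had 0.73 and 0.89. Of the 5 near Slpi, 3 were higher and 0 were lower, from -0.45 (Mir7678) to 0.83 (Dbndd2).

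**Figure D5:**
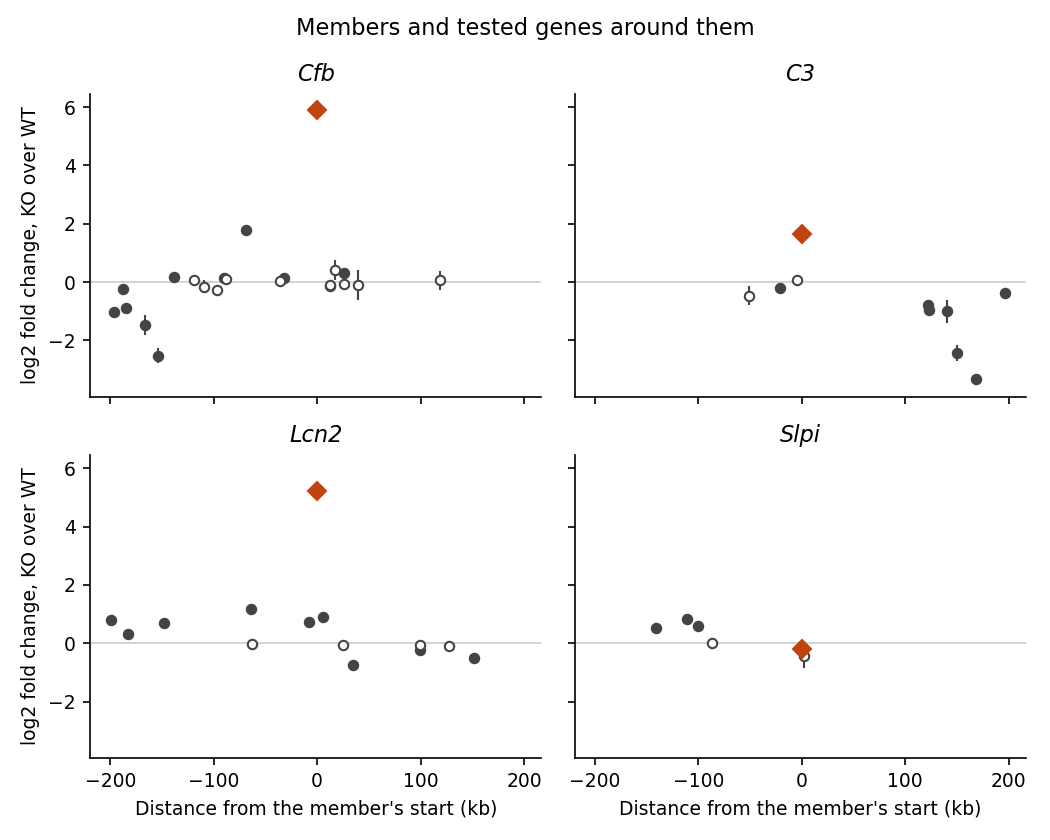
Log2 fold change (KO over WT, bars show the SE) of the tested genes that start within 200000 bases of each of the 4 genes, against their distance from its start along its strand. Red diamonds mark Cfb (5.91), C3 (1.66), Lcn2 (5.23) and Slpi (-0.20), and for the first 3 no neighbour reaches the level of the diamond.

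The genes whose levels were most like each of the 4 were found by the distance between log2 TPM values over the 6 libraries, among 12102 genes. This is a description of 3 KO and 3 WT libraries and rests mostly on the mean level and the KO against WT difference. The nearest to Cfb was Oas2 (distance 1.24), at 54.7, 47.0 and 49.2 TPM in KO libraries 1 to 3 and 0.747, 0.499 and 0.600 TPM in WT libraries 1 to 3. The nearest to Lcn2 was Mid1 (distance 0.906), at 103, 164 and 166 TPM in KO libraries 1 to 3 and 4.00, 3.59 and 3.48 TPM in WT libraries 1 to 3. The nearest to C3 was Nog (distance 0.552) and the nearest to Slpi was Cd9 (distance 0.156). The match was thus close for Slpi and C3 and looser for the 2 genes with the largest differences.

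Gpd2 was at 9.90, 9.95 and 9.88 TPM in KO libraries 1 to 3 and at 51.6, 52.1 and 52.0 TPM in WT libraries 1 to 3 and so lower in each library labelled KO, and its transcript was still counted in KO cells. Total counts were 51186527 to 59846170 per library and TMM factors 0.993 to 1.01. The labelled carcinoma cells were checked with epithelial markers, of which 3 of 10 were in the table (Krt7, Krt8 and Krt18), at a summed 733 to 771 CPM in KO cells and 1270 to 1330 CPM in WT cells, with all 3 lower in KO cells. The other 7, among them Epcam and Cdh1, are not analysed here. Of neutrophil markers, whose cells also make Lcn2 and Slpi, 1 of 12 was in the table (S100a8, 1.68 to 3.51 CPM in KO cells and 1.64 to 2.24 CPM in WT cells), and of macrophage markers 5 of 14 were, at a summed 30.2 to 32.0 CPM in KO cells and 37.9 to 38.9 CPM in WT cells, with 4 of the 5 lower in KO cells. Fibroblast markers (3 of 9) summed to 56.6 to 64.0 CPM in KO cells and 115 to 116 CPM in WT cells. Most of that sum was Pdgfra, named after its values were seen. Pdgfra and Col1a1 were lower in KO cells, and Pdgfrb was higher. Pdgfrb was at 0.872 ± 0.288 CPM in KO cells and 0.275 ± 0.0727 CPM in WT cells (SD, n = 3 each), a log2 fold change of 1.66. Lymphocyte markers (2 of 10) summed to 1.69 to 2.11 CPM in KO cells and 1.08 to 1.29 CPM in WT cells, with 2 higher in KO cells. Of these, Cd79a had 4 to 15 reads per library and did not pass with DESeq2 (adjusted p = 0.105). The counts of higher and lower markers stand beside 33.5% of all tested genes higher and 33.3% lower in KO cells. Of hepatocyte markers, 0 of 9 were in the table. The smallest count in the table is 1, so no marker in it is at 0. The part of these differences in the levels of Cfb, C3, Lcn2 and Slpi was not tested.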

How the data were processed

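Total RNA of 3 KO and 3 WT libraries was made into stranded mRNA libraries for paired-end NovaSeq sequencing. Trimming by the authors used Trimmomatic 0.38, alignment to mm10 HISAT2 2.1.0 and transcript assembly StringTie 1.3.4d. How strand was treated in counting is not given in the sources. The deposited table holds read counts per gene that the authors did not normalize, beside per-library FPKM and TPM values made by the authors. The deposited log2 values, which the authors scaled, the deposited signed fold score, which holds a ratio of KO to WT, and the deposited p-values of the authors' comparison were not used.

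Groups followed the genotype in the labels. Counts of 51186527 to 59846170 per library were fitted with edgeR 4.0.16 under R 4.3.3, with TMM factors, filterByExpr with a minimum count of 10 (428 of 12534 genes left out) and edgeR's quasi-likelihood test, p-values being adjusted by Benjamini-Hochberg over 12106 genes and a threshold of 0.05. Standard errors come from that fit. A fit on simulated counts was checked first. Alternatives used other scaling, no filter, DESeq2 1.42.0, limma 3.58.1 on log2(TPM + 1) or log2(TPM + 0.1), a replicate block, other thresholds and each library left out. Positions came from RefSeq on GRCm38, matched by Entrez identifier for 12512 genes, with strand and exons from GENCODE. The named genes are the members, Gpd2, up to 6 genes per list with an adjusted p under 0.05, a fold of 2 or more and no overlap of KO and WT libraries, close copies, neighbours and the nearest gene by log2 TPM. The members and all lists were chosen with earlier results of these data known. Protein sequences were not used here. A few list genes are not reported here.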

Additional observations from a re-analysis of the deposited data

How the results depend on the processing

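Over 13 alternatives the log2 fold change of Cfb lay between 4.47 and 5.996, that of C3 between 1.31 and 1.76, that of Lcn2 between 4.85 and 5.29 and that of Slpi between -0.24 and -0.18, with no change of sign. They moved by more than the replicate spread under limma on log2(TPM + 1) (Cfb 4.47, C3 1.31, Lcn2 4.85) and, for Cfb, on log2(TPM + 0.1) (5.70), where a pseudocount understates the change of a gene with a low WT level. The genes that passed the test numbered 8079 with DESeq2 size factors, 8093 with library totals alone, 8070 with no filter, 8050 with DESeq2, 7967 and 7969 with limma and 7433 to 7783 with 1 library left out, against 8085. With a fold of 2 or more besides the adjusted p, 1015 passed (453 higher and 562 lower in KO cells), and at the thresholds of the study 1046 (467 higher and 579 lower). At either, 5 complement genes outside the 4 passed, 1 of them lower, and 1 acute-phase gene, with 0 higher and 1 lower. Within 100000 bases of the 4 starts there were 25 neighbours, against 48 within 200000, and TATAAA was in 0 of 3 windows when only the 250 bases before the start were searched.

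Of 2093 values of 161 other genes, 2032 kept their side of the threshold, 41 lost the call and 20 gained it. The sign changed in 29 values of 16 genes, of which 0 had passed the test with all libraries. Zbtb12 and Tubb4a, near Cfb and C3, lost their calls under 10 and 6 of 13 alternatives. Masp2, a protease of the lectin pathway, lost its call with limma on TPM (adjusted p = 0.240 and 0.222). Wfdc1 lost it without KO replicate 2, KO replicate 3, WT replicate 1 or WT replicate 2, Cd79a with DESeq2 and without KO replicate 3 or WT replicate 2, Mrc1 without WT replicate 1 and Lck without KO replicate 1. Fcna gained a call under 5 alternatives, among them the replicate block, and Tnfaip3 and S100a8 gained one without KO replicate 1, with log2 fold changes of -0.47 and 0.73. The cause was not tested.

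A replicate block gave 7974 genes. The same-numbered KO and WT libraries had correlations of 0.0549, 0.0621 and -0.0165 between their deviations from the group means, so the numbers are not taken to pair the libraries. The counts of 35 to 78 reads for Cfb and Lcn2 in WT libraries limit the precision of their folds, and 1 KO clone limits every comparison.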
